A study of Mus musculus with 4 samples.

Results

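The 6 genes described here, *Nkx2-1*, *Lhx6*, *Sox6*, *Satb1*, *Sst* and *Npy*, are hallmark genes of interneurons that arise in the medial ganglionic eminence (MGE). They were chosen by symbol from the 32285 genes of the count matrices, and each symbol matched 1 row. The study asked how loss of 1 *Chd8* allele in midfetal neural progenitors alters the cells that those progenitors produce. It profiled tdTomato-positive cells, sorted from mice at P5, with the 10x Genomics Chromium 3′ chemistry. Control mice (NestinCreERT2/tdTomato/Chd8+/+) and mutant mice (NestinCreERT2/tdTomato/Chd8+/F) were both on the C57BL/6 strain, both carried the Nestin-driven, tamoxifen-inducible Cre and the reporter, and both received tamoxifen in utero at E14.5. The Cre acts in Nestin-positive progenitors, so the sorted neural cells should descend from, or be, cells that were progenitors when tamoxifen was given. In the mutants 1 *Chd8* allele loses its loxP-flanked exons in them. The cells kept also held 1199 microglia, pericytes, endothelial cells and fibroblasts, and how these came to be sorted was not tested. The labels give the tissue as forebrain, and the methods describe telencephalon with the olfactory bulbs removed. Each genotype had 2 libraries, numbered replicate 1 and replicate 2, and each library held cells pooled from 3 mice, so the spread between mice was not measured and p-values reflect the spread between libraries.

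The MGE is a transient swelling of the ventral embryonic telencephalon. Its progenitors express the homeodomain factor *Nkx2-1*, which switches on the LIM homeodomain gene *Lhx6* as the cells leave the cycle and migrate tangentially to the cortex, striatum and hippocampus. *Sox6* and *Satb1* act after *Lhx6* in the positioning and maturation of these neurons, and the neuropeptides somatostatin (*Sst*) and neuropeptide Y (*Npy*) mark large groups of their mature forms. Interneurons of the caudal ganglionic eminence (CGE) and neurons of the lateral eminence express other factors, such as *Nr2f2* and *Adarb2*, or *Meis2* and *Foxp1*.

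In the mm10 (GRCm38) genome, the GENCODE vM21 annotation places *Nkx2-1* at chr12:56531958-56536908 on the minus strand, with 2109 intronic bases, and *Lhx6* at chr2:36081953-36105408 on the minus strand, with 18651 intronic bases. *Sst* (chr16:23889573-23890958, minus strand) has 2 exons and 665 intronic bases, and *Npy* (chr6:49822710-49829507, plus strand) has 4 exons and 6232 intronic bases. By contrast, *Sox6* (chr7:115470872-116038796, minus strand) holds 553093 intronic bases, and *Satb1* (chr17:51736187-51833290, minus strand) holds 78077. Annotated antisense genes overlap *Sox6* (*Gm45025* and *Sox6os*) and *Nkx2-1* (*Gm26973*). *Gm45025* was counted as a gene of its own, with 1351 UMIs. Whether the counting used strand is not given in the sources used here. It is therefore not known whether antisense reads entered the counts of *Sox6* and *Nkx2-1*.

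The 250 bases before the RefSeq start (GRCm38.p6, written 5′ to 3′ on the strand of the gene) are shown for *Sst* with *Npy* and for *Nkx2-1* with *Lhx6* (outermost start), the pairs whose detection in the same cells is described below. Capitals mark the only match to 4 motifs that were searched on both strands (the cAMP response element TGACGTCA, the TATA box core TATAAA, the homeodomain core TAATTA and the Nkx2-1-type core CAAGTG), and a match describes letters, not binding.
Sst, chr16:23890845-23891094: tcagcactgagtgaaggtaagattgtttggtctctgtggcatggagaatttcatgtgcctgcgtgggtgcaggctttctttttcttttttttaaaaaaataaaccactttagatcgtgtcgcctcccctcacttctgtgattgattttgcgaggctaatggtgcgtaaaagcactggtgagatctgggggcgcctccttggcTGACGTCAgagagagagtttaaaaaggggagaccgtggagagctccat
Npy, chr6:49822460-49822709: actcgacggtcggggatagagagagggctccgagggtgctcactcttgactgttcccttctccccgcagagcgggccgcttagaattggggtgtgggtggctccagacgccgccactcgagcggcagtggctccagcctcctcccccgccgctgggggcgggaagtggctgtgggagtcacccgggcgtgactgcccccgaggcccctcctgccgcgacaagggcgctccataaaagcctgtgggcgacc
Nkx2-1, chr12:56536909-56537158: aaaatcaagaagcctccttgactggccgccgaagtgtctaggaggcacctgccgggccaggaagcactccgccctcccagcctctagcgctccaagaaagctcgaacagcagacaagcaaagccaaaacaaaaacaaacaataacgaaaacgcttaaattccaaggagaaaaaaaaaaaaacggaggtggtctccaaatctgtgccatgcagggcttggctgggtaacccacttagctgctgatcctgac
Lhx6, chr2:36105409-36105658: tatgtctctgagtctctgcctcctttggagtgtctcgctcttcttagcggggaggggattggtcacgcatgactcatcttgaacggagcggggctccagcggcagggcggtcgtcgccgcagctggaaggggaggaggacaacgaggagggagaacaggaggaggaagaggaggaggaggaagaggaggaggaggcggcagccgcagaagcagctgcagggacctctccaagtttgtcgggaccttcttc
The palindrome TGACGTCA, the cAMP response element for which the *Sst* promoter is a textbook example, lay 48 bases before the *Sst* start. It was present in 508 of 32851 windows of the same length (1.55%), and in none of the windows of the other 5 genes.

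Of 27742 barcodes, 17623 passed the filters on UMIs (unique molecular identifiers, each the tag of 1 captured transcript molecule), genes and mitochondrial counts. The matrices held 46274374 to 79328841 UMIs per library, and the cells kept had a median of 11497 to 11837.5 UMIs per library. Clustering without the 6 genes gave 31 clusters, of which 30 were named from markers into 16 classes. There were 1298 and 285 inhibitory neurons in the first and second control library, against 1107 and 274 in the mutant libraries. Among them, *Gad2*, which encodes a GABA-synthesizing enzyme, was detected in 82.5% to 94.1% of cells of a library, against 5.75% to 15.4% of all other cells. Headers named Cell Ranger 7.0.0 for both libraries of replicate 1 and 5.0.1 for both of replicate 2, so the software version and the replicate number cannot be told apart. *Chd8* itself stood at 61.7 and 89.8 counts per 1000000 UMIs (CPM) in the controls and at 68.7 and 94.9 CPM in the mutants, but these 3′ tags need not fall in the deleted exons and so do not check the labels.

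*Lhx6* was mostly found in inhibitory neurons. It was detected in 95 of 17623 cells, and 61 of these 95 were inhibitory neurons, which held 81.0% of its 253 UMIs. In inhibitory neurons it stood at 7.35 and 20.2 CPM in control replicates 1 and 2 and at 12.1 and 3.39 CPM in mutant replicates 1 and 2, so that the genotypes overlapped. The mean was 10.8 ± 7.24 CPM (SD, n = 4 libraries, as for all class means given below with ±). The next levels were 1.63 ± 1.09 CPM in endothelial cells, from 4 of 166 cells, and 1.25 ± 1.38 CPM in dividing progenitors of inhibitory neurons (IN progenitors). Every other class had a mean at or below 0.273 CPM. With every cell thinned to 2000 UMIs, 1.21% of inhibitory neurons (exact 95% interval, 0.852% to 1.68%) had an *Lhx6* UMI, against 0.0834% (0.00211% to 0.464%) of the 1199 microglia, pericytes, endothelial cells and fibroblasts, which served as the measure of background. Before thinning the shares were 2.06% and 0.417%, at median depths of 6424.5 and 10586 UMIs per cell. Intervals on shares cover counting error only.

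*Sst* was concentrated in the same class but in very few cells. Inhibitory neurons held 85.8% of its 921 UMIs (56.5% of the 301 left without 1 cell of mutant replicate 1, described below), at 14.7 and 8.58 CPM in the controls and 79.0 and 1.13 CPM in the mutants. Only 34 of 2964 inhibitory neurons (1.15%, 0.796% to 1.60%) had an *Sst* UMI at all, and this share overlapped that of the non-neural classes (0.584%, 0.235% to 1.20%). Of these 34 cells, 22 had a single UMI and 9 had 5 or more. In the non-neural classes 7 cells had a UMI of *Sst*, each a single one.

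*Npy* had more than 1 source. Its level was 87.6 ± 16.5 CPM in ependymal cells, 73.9 ± 93.9 CPM in inhibitory neurons and 38.3 ± 28.9 CPM in astrocytes, and the libraries of inhibitory neurons overlapped those of both other classes. The ependymal libraries (69.9 to 107 CPM) all lay above the astrocyte libraries (11.7 to 69.4 CPM), the closest pair by a small margin. Astrocytes held 31.9%, ependymal cells 21.6% and inhibitory neurons 35.2% of its 6559 UMIs. The last share rested on mutant replicate 1, in which a single cell held 1582 UMIs, and without that cell the shares were 42.0%, 28.4% and 14.6%. Without the whole library they were 45.4%, 25.1% and 14.7%. In ependymal cells, the multiciliated cells that line the ventricles, 297 of 888 cells (33.4%, 30.3% to 36.7%) had an *Npy* UMI, and in astrocytes 435 of 4210 (10.3%, 9.43% to 11.3%). Only 86 of 2964 inhibitory neurons (2.90%, 2.33% to 3.57%) had one, against 1.33% (0.765% to 2.16%) of the non-neural cells.

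*Nkx2-1* was found at low levels in neurons and glia alike. It was detected in 352 cells, of which 84 were oligodendrocyte precursor cells (OPCs), 50 astrocytes, 49 ependymal cells, 43 cells of the unnamed cluster and 41 inhibitory neurons. The highest class means were 11.8 ± 11.96 CPM in the unnamed cluster, 6.49 ± 2.32 in inhibitory neurons, 6.37 ± 3.83 in ependymal cells and 5.42 ± 1.44 in OPCs, and none of these differed from its neighbour beyond the spread. Only 2 of 1199 non-neural cells had a UMI, and 0 of 533 precursors of excitatory neurons did, with an exact upper limit of 0.690%. After thinning, the share was 1.11% (0.726% to 1.62%) in OPCs and 0.709% (0.439% to 1.08%) in inhibitory neurons, both apart from the 0 of 1199 in non-neural cells (exact upper limit, 0.307%).

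The remaining factors, *Sox6* and *Satb1*, were broad. *Sox6*, a SoxD factor that also acts in the oligodendrocyte lineage, was highest in OPCs (969 ± 617 CPM), oligodendrocytes (923 ± 605) and the dividing precursors of OPCs (pri-OPCs, 769 ± 476), and stood at 80.0 ± 70.8 CPM in inhibitory neurons. It was detected in 2236 of 2343 OPCs and in 695 of 2964 inhibitory neurons, which held 2.97% of its 84648 UMIs. *Satb1*, a chromatin organizer, was highest in excitatory neurons (152 and 131 CPM in the controls, 163 and 168 in the mutants), and the OPC libraries, at 90.7 to 121 CPM, all lay below these. Inhibitory neurons, at 70.0 ± 12.02 CPM, stood below neural progenitor cells (90.0 ± 14.3) and pri-OPCs (86.7 ± 12.3) on average, and their libraries overlapped those of astrocytes, oligodendrocytes and IN progenitors. The lowest *Satb1* levels were in the non-neural classes, at 9.10 to 18.7 CPM on average.

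**Figure D1:**
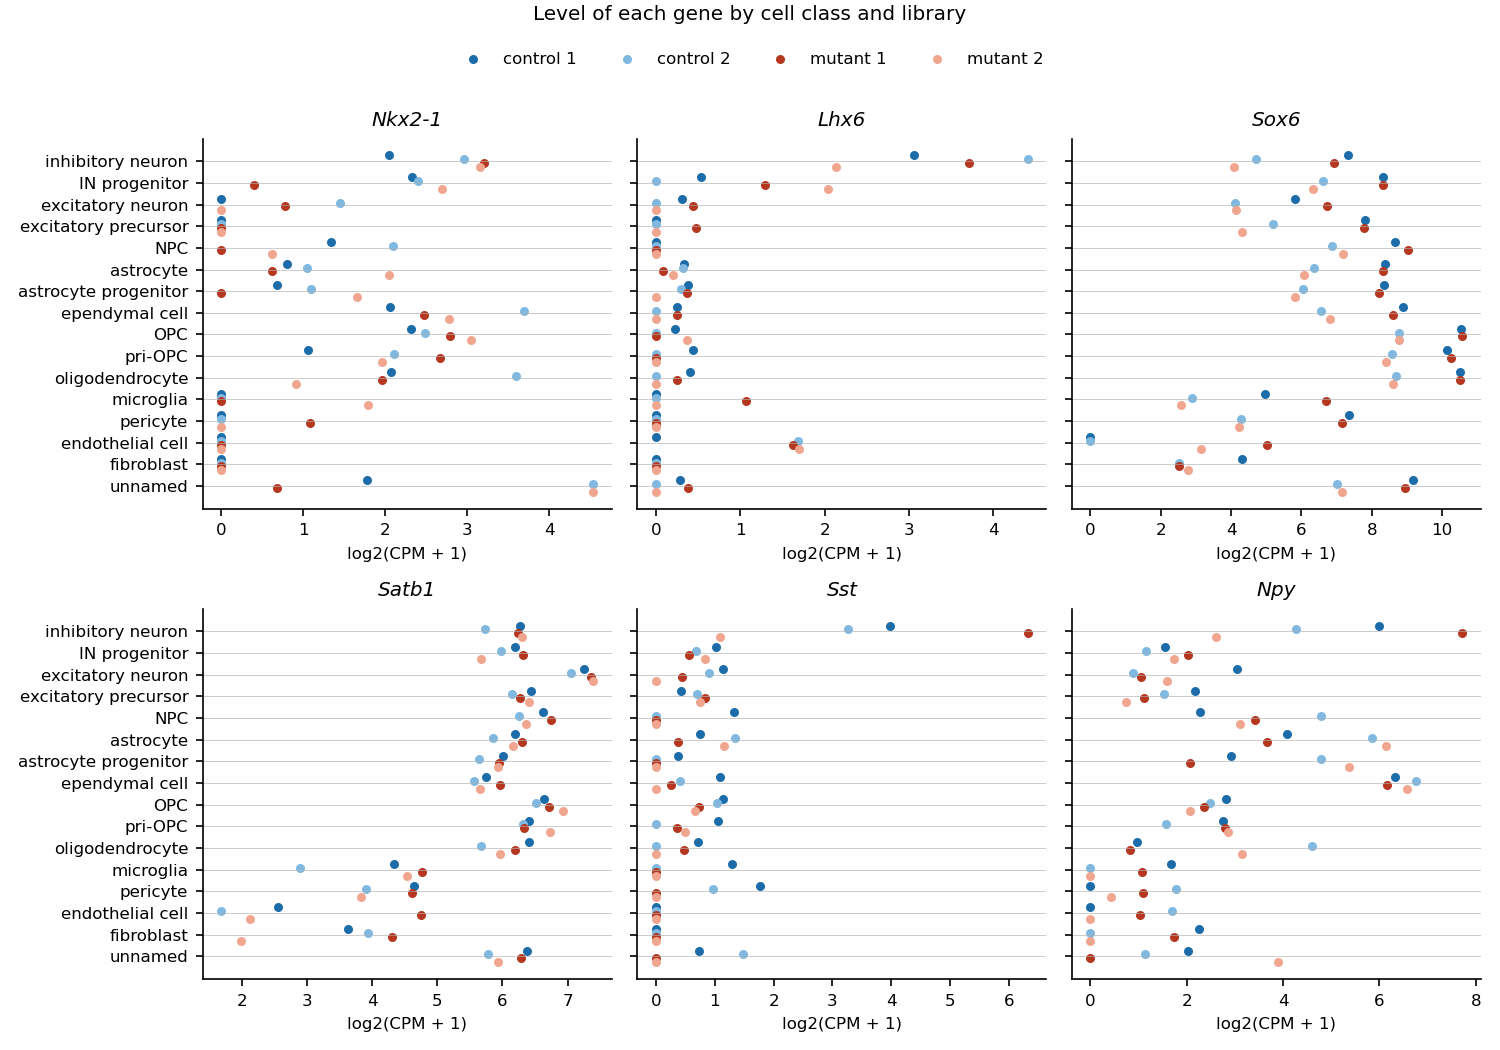
Level of each of the 6 genes (horizontal axis, log2 of CPM + 1) in each cell class (vertical axis, without the 25 choroid plexus cells), with 1 point per library. The mean of *Lhx6* (10.8 CPM) is highest in inhibitory neurons, that of *Npy* in ependymal cells (87.6 CPM), and replicate 1 (dark points) exceeds replicate 2 (light points) for *Sox6* in all 13 classes tested.

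Most *Lhx6* lay in 1 sub-cluster. When the inhibitory neurons were clustered on their own, again without the 6 genes, 1 of 14 sub-clusters held 48 of the 61 cells with *Lhx6* and 178 of the 205 UMIs. Its 134 cells (65 and 12 in the controls, 50 and 7 in the mutants) were led by *Reln*, *Sfta3-ps* and *Shisa6*. Their marker score for MGE interneurons (3.20) barely exceeded that for CGE interneurons (3.15), so the sub-cluster was left unnamed. With a mitochondrial limit of 5% in place of 10%, 53 of the 61 cells were left, and 44 of them fell in an unnamed cluster outside the inhibitory neurons. The sub-cluster also held 36 of the 41 inhibitory neurons with *Nkx2-1*, 29 of the 86 with *Npy* and 8 of the 34 with *Sst*. Only 52 of the 695 with *Sox6* and 28 of the 1035 with *Satb1* were in it. The share of inhibitory neurons in this sub-cluster was 5.01% and 4.21% in the controls and 4.52% and 2.55% in the mutants.

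Within the sub-cluster, cells with and without *Lhx6* had different companions. Of the 48 cells with *Lhx6*, 28 had *Nkx2-1*, 35 had *Sox6*, 21 had *Npy*, 14 had *Satb1* and 7 had *Sst*. Of the 86 cells without it, the counts were 8, 17, 8, 14 and 1. The cells with *Lhx6* were deeper, with a median of 8211 against 5350 UMIs. With every cell thinned to 2000 UMIs, *Nkx2-1* was in 29.2% (16.95% to 44.1%) against 6.98% (2.60% to 14.6%), and *Sox6* in 41.7% (27.6% to 56.8%) against 9.30% (4.10% to 17.5%). The thinned intervals overlapped for *Npy* (27.1%, 15.3% to 41.8%, against 8.14%, 3.34% to 16.1%), *Sst* and *Satb1*. The share of all genes with intervals apart in this split was not measured, so the separations are not read as particular to these genes. The intervals pool cells of both genotypes and all libraries.

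The split extended to markers that were not members. Among the 10 other MGE markers, 7 were found in a larger share of the cells with *Lhx6* before thinning. After thinning, 2 had intervals that did not overlap. These were *Nxph1*, which encodes a secreted ligand of neurexins (79.2% against 30.2%), and *Crabp1*, a retinoic acid-binding protein (18.8%, 8.95% to 32.6%, against 2.33%, 0.283% to 8.15%). *Elfn1* (0% against 8.14%), *Cxcr4* (2.08% against 6.98%), *Grin3a* (6.25% against 11.6%) and *Pnoc* (4.17% against 17.4%) went the other way after thinning, with overlapping intervals. The remaining MGE markers were in a larger share of the cells with *Lhx6*. Of the 8 CGE markers, 3 were in a larger share of the cells with *Lhx6* before thinning, and 2 were apart in the opposite direction after it. *Adarb2*, an RNA-editing family member typical of CGE neurons, was in 6.25% against 69.8%, and the nuclear receptor gene *Nr2f2* in 4.17% against 26.7%. *Npas1* and *Vip*, 2 further CGE markers, were in 0 of the 48 cells with *Lhx6*, with an exact upper limit of 7.40%. Of the 86 cells without *Lhx6*, 20 had *Npas1* (23.3%, 14.8% to 33.6%) and 4 had *Vip* (4.65%, 1.28% to 11.5%). The intervals thus overlapped for *Vip* before thinning, and for both genes after it.

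**Figure D2:**
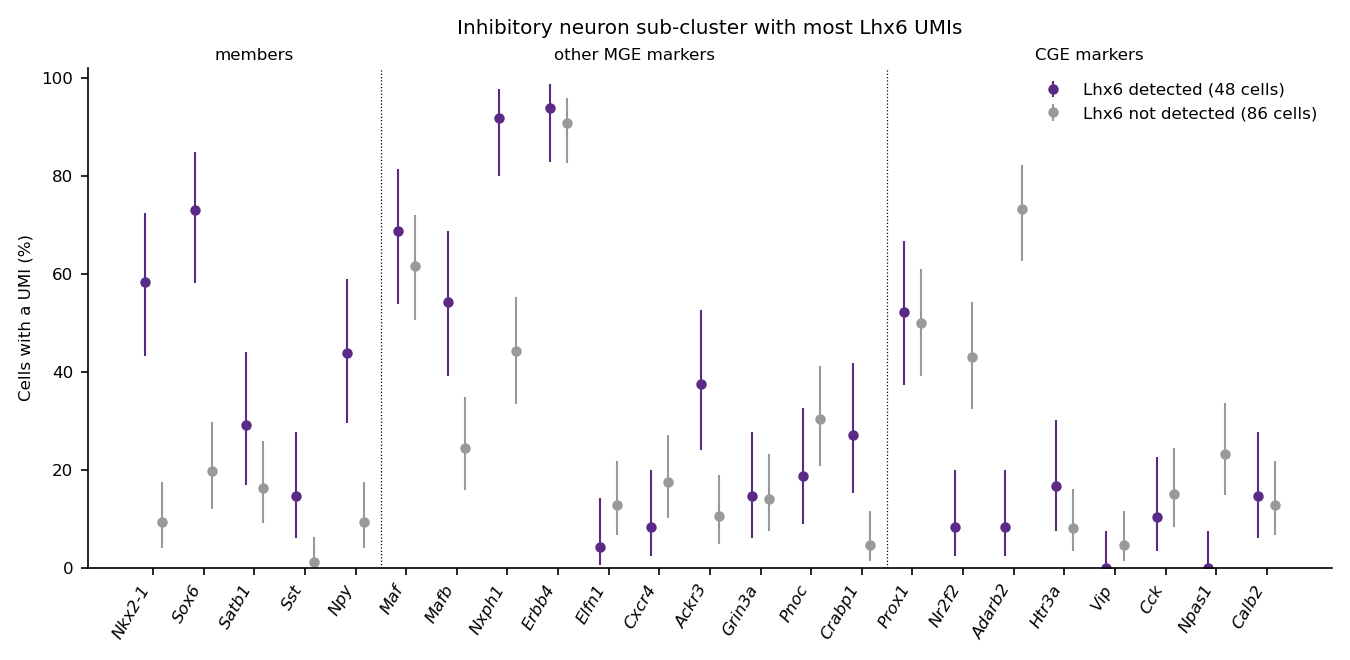
Share of cells with at least 1 UMI of each gene (vertical axis, %, cells not thinned) in the 134 cells of the sub-cluster, split by detection of *Lhx6*, with exact 95% intervals. *Nkx2-1*, *Sox6* and *Nxph1* are higher in the 48 cells with *Lhx6* and *Adarb2* and *Nr2f2* are higher in the 86 cells without it, which were shallower.

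*Nkx2-1* and *Lhx6* were found together in 33 cells, of which 30 were inhibitory neurons. These 30 made up 73.2% of the inhibitory neurons with *Nkx2-1* and 49.2% of those with *Lhx6*. In the other 14659 cells, 311 had *Nkx2-1*, 34 had *Lhx6* and 3 had both. Of the inhibitory neurons with a UMI of *Sp8* or *Prokr2*, which mark neuroblasts of the lateral and caudal eminences, 21 of 2167 had *Lhx6*. Of those with neither gene, 40 of 797 did. The median depth was 6645 and 5535 UMIs.

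Most of the *Sst* signal came from a handful of cells, and the same cells carried much of the neuronal *Npy*. A single cell of mutant replicate 1 held 620 of the 638 *Sst* UMIs and 1582 of the 1696 *Npy* UMIs of the inhibitory neurons of that library. It had 22721 UMIs in all, 11 of them *Lhx6* and 24 *Sox6*, and no UMI of *Nkx2-1* or *Satb1*. The next 3 cells by the sum of both peptides were all of control replicate 1, with 26 *Sst* and 262 *Npy* UMIs, 47 and 128, and 21 and 51. The first of these 3 was marked as a doublet by Scrublet and had no *Gad1* or *Gad2* UMI. *Lhx6* was detected in 3 of the 4 cells. In all, 7 inhibitory neurons had both peptides, which is 20.6% of those with *Sst* and 8.14% of those with *Npy*. Outside this class 5 of 100 cells with *Sst* also had *Npy*.

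**Figure D3:**
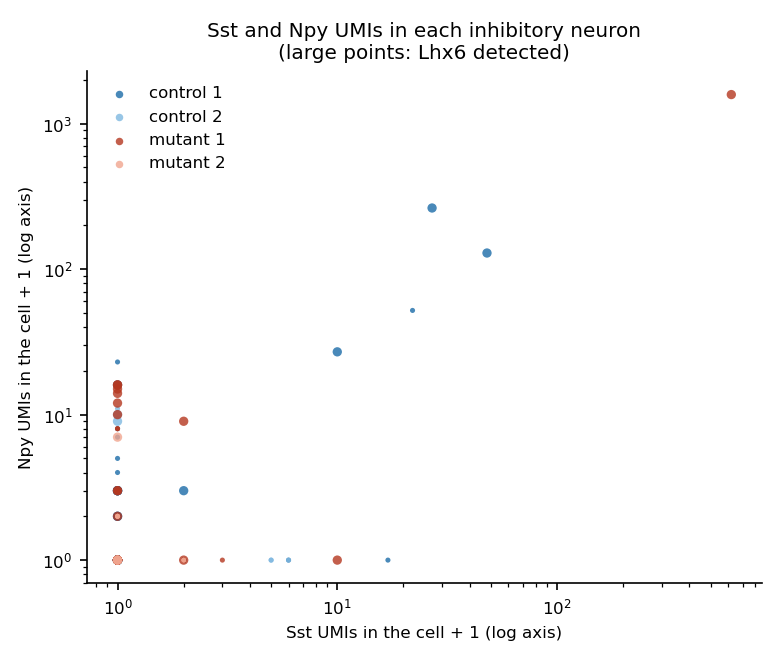
UMIs of *Sst* (horizontal axis) and *Npy* (vertical axis) in each inhibitory neuron with a UMI of *Sst*, *Npy* or *Lhx6*, both plus 1 on log axes, coloured by library, with large points for cells with *Lhx6*. A single mutant replicate 1 cell lies at the upper right with 620 *Sst* and 1582 *Npy* UMIs, and most other cells lie on an axis with 1 peptide or neither.

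Outside neurons, *Npy* was a feature of particular ependymal and astrocyte clusters. In the ependymal cluster led by *Tmem212*, 46.4% and 38.8% of control cells and 35.1% and 33.8% of mutant cells had an *Npy* UMI, so that both mutant libraries lay below both controls. After thinning to 2000 UMIs the shares were 15.6% and 18.4% against 10.4% and 14.01%, again with both mutants below both controls. Of the genes with a UMI in at least 20 cells of this cluster, 9.18% had both mutant libraries lower in this way before thinning and 11.1% after it. The difference was not tested at the level of this cluster. The level there was 94.6 and 138 CPM in the controls and 88.4 and 97.3 CPM in the mutants, and these overlapped. The second ependymal cluster, led by *Cdc20b* and *Mcidas*, genes of cells that are building cilia, had *Npy* in 16 of 166 cells. Among astrocytes, *Npy* was highest in a cluster led by *Cidea*, *Serpinf1* and *Gfap*, at 38.7% of 594 cells. There it was found in 43.3% and 41.9% of the replicate 2 cells of the controls and mutants, but in 17.4% and 16.7% of the 46 and 42 replicate 1 cells. The thinned shares, 17.97% and 19.0% against 4.35% and 2.38%, kept this order. A further cluster led by *Kcnj6*, with *Gfap* at 836 CPM, held cells of replicate 1 only and had *Npy* in 55 of 315 control and 38 of 287 mutant cells. In the larger astrocyte clusters led by *Inka2* and *Gm48747*, *Npy* was in 4.25% of 1272 and 2.67% of 1498 cells. These clusters were likewise split by replicate. The *Inka2* cluster held 599 control and 613 mutant cells of replicate 2, against 28 and 32 of replicate 1. The *Gm48747* cluster held 756 and 737 cells of replicate 1, against 4 and 1 of replicate 2. A comparison of these 2 clusters is therefore also one of the replicates. In replicate 2 the *Inka2* shares were 4.84% and 3.75%, and in replicate 1 the *Gm48747* shares were 3.44% and 1.90%.

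**Figure D4:**
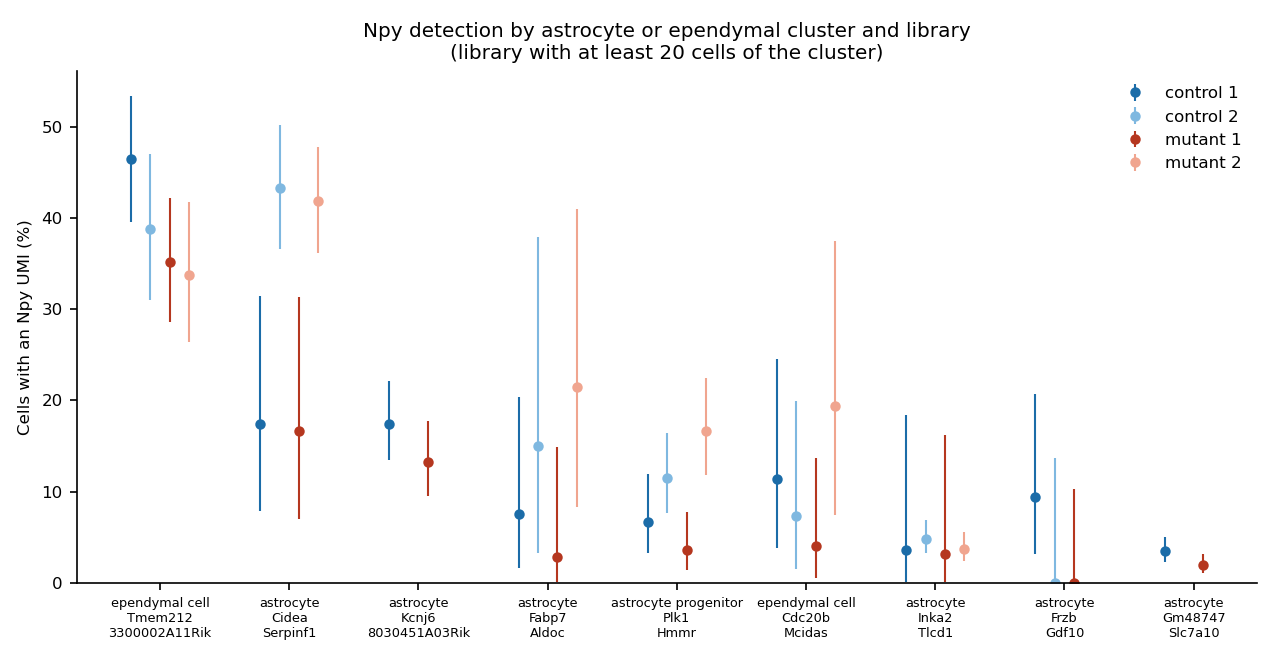
Share of cells with an *Npy* UMI (vertical axis, %) in each ependymal or astrocyte cluster (horizontal axis, named by class and 2 leading genes), with 1 point and exact 95% interval per library with at least 20 cells. The *Tmem212* ependymal cluster lies at 33.8% to 46.4% in all 4 libraries, and the *Cidea* astrocyte cluster at 16.7% to 43.3%, with replicate 2 above replicate 1.

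*Nkx2-1* also differed between the replicates in some clusters. Of the 21 clusters with at least 20 cells in every library, both replicate 2 libraries had a larger share of cells with *Nkx2-1* than both of replicate 1 in 4, and the reverse was found in 2. After thinning these numbers were 5 and 0. The share of all genes that separate by replicate in a cluster was not measured. Same-numbered libraries also deviated together over all genes tested in a class (r = 0.609 to 0.894). These counts are therefore not read as particular to *Nkx2-1*. In the unnamed cluster, led by *Lhcgr*, *Veph1* and *Fam107a*, 23 of 163 cells of control replicate 2 (14.1%) and 14 of 122 of mutant replicate 2 (11.5%) had *Nkx2-1*. Only 5 of 384 cells of control replicate 1 (1.30%) and 1 of 291 of mutant replicate 1 (0.344%) did. In the *Tmem212* ependymal cluster the shares were 2.84% and 9.21% in control replicates 1 and 2 and 3.47% and 7.01% in the mutants. The OPC cluster led by *Tmem255b* and *Dll3* had the same order, with 2.08% and 6.00% in the controls and 1.63% and 4.24% in the mutants. In a second OPC cluster, led by *Col19a1*, replicate 1 was the higher one (3.68% and 2.03% in the controls, 4.84% and 3.17% in the mutants), although not after thinning. Over all OPCs *Nkx2-1* stood at 3.97 and 4.59 CPM in the controls and 5.92 and 7.21 CPM in the mutants. *Sfta3-ps*, a noncoding gene on the same strand that begins 2530 bases past the 3′ end of *Nkx2-1*, accompanied it in neurons and glia. It was in 32 of the 41 inhibitory neurons with *Nkx2-1* (78.0%) and in 0.342% of those without, in 23 of the 84 OPCs with *Nkx2-1* (27.4%) and in 1.42% of those without, and in 21 of 43 cells (48.8%) of the unnamed cluster against 0.763%. *Lhx6* accompanied *Nkx2-1* in 1 of 84 OPCs and in none of the 49 ependymal cells, the 50 astrocytes or the 43 unnamed cells.

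The contrast between replicates was most regular for *Sox6*. In inhibitory neurons it stood at 160 and 25.1 CPM in control replicates 1 and 2 and at 120 and 15.8 CPM in mutant replicates 1 and 2, so that both libraries of replicate 1 lay far above both of replicate 2. Over the 13 classes tested, replicate 1 exceeded replicate 2 by 2.99-fold to 8.85-fold in the controls and by 3.51-fold to 20.9-fold in the mutants. For *Satb1* the corresponding ranges were 1.07-fold to 3.002-fold and 0.755-fold to 1.78-fold. Over all cells, the log2 ratio of replicate 2 to replicate 1 in the controls was -1.98 for *Sox6*, -0.42 for *Satb1*, -0.14 for *Lhx6*, -1.03 for *Sst*, 0.76 for *Npy* and 0.98 for *Nkx2-1*. In the mutants it was -2.25 for *Sox6*, -0.17 for *Satb1*, -1.90 for *Lhx6*, -3.82 for *Sst*, 0.09 for *Npy* and 0.48 for *Nkx2-1*, so that *Lhx6* and both peptides had different ratios in the 2 genotypes. Among the genes with at least 1000 UMIs, the median in the controls was -1.05 for the 1950 with 100000 or more intronic bases and 0.26 for the 3810 with under 10000, and in the mutants -1.13 and 0.38. The part of intronic reads, of the software and of cell composition in these ratios was not tested.

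**Figure D5:**
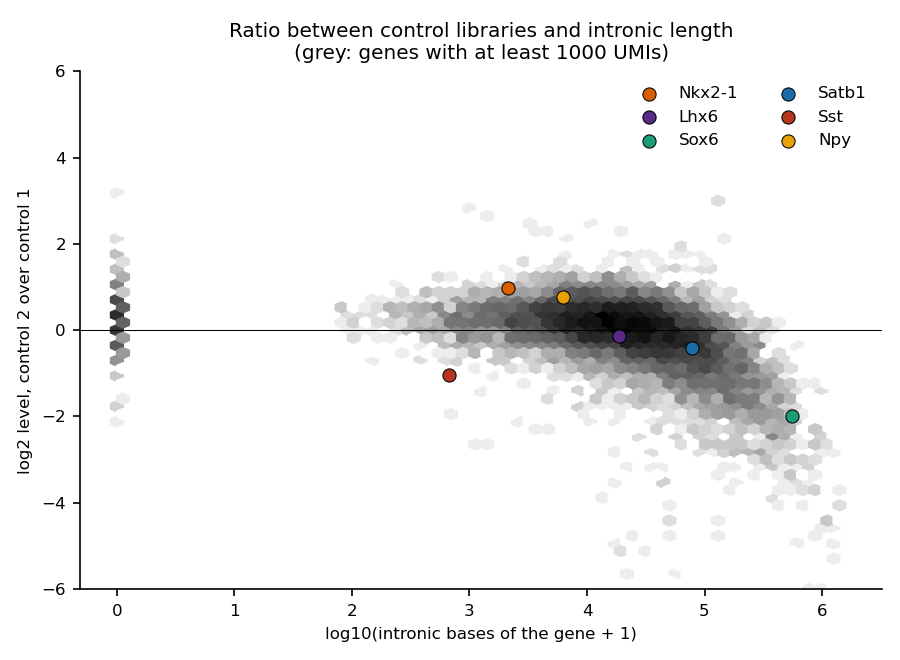
Log2 ratio of control replicate 2 to control replicate 1 over all cells (vertical axis) against the log10 of the intronic bases of the gene plus 1 (horizontal axis), in grey for 12472 genes with at least 1000 UMIs (darker for more genes) and in colour for the 6 genes. The median of genes with 100000 or more intronic bases is -1.05, and *Sox6*, with 553093 intronic bases and a ratio of -1.98, lies among them.

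No member passed the test between mutant and control inhibitory neurons. Sums of counts per library went into a quasi-likelihood test in edgeR over 12963 genes, of which 0 (0%) passed an adjusted p of 0.05, 4 had an unadjusted p under 0.05, and DESeq2 likewise called 0. *Nkx2-1*, at 3.13 and 6.74 CPM in the controls and 8.17 and 7.92 CPM in the mutants, had a log2 difference (mutant over control) of 0.76 ± 0.58 (SE), and its mutant libraries both lay above the controls. Of the genes tested, 6.94% had both mutant libraries higher and 7.37% had both lower. For *Lhx6* the difference was -0.70 ± 0.84, with 0.66 and -2.43 within replicates 1 and 2. It was 0.21 ± 0.33 for *Satb1* and -0.47 ± 1.29 for *Sox6*, for which both replicates gave negative values (-0.44 and -0.67). Every adjusted p of the 6 genes was 0.99996. A smaller number of cells that express a gene and less RNA per cell cannot be told apart in these sums. The test had no term for the replicate, although same-numbered libraries deviated together in this class (r = 0.838). With the replicate number as a further term in edgeR (the replicate block), 403 genes had an unadjusted p under 0.05 and again 0 passed. The absence of calls therefore does not show that the genotypes were alike.

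The fitted differences of the peptides changed sign with 1 cell, and few cells carried the peptides in the controls too. The log2 difference was 1.78 ± 1.60 for *Sst* and 1.40 ± 1.63 for *Npy*, with values of opposite sign within the replicates (2.36 and -2.48 for *Sst*, 1.72 and -1.77 for *Npy*). Without the mutant replicate 1 cell described above, the differences were -2.71 and -2.05, with adjusted p of 0.99997 for both by edgeR. The levels in mutant replicate 1 then fell to 2.23 CPM for *Sst* and 14.2 CPM for *Npy*. This removed a cell from 1 mutant library only. In control replicate 1, single cells held 262 of 576 *Npy* UMIs and 47 of 136 *Sst* UMIs. Without the top cell of each library, *Npy* stood at 34.0 and 12.3 CPM in the controls and 14.2 and 1.70 CPM in the mutants, which overlapped. *Sst* stood at 9.63 and 5.53 CPM against 2.23 and 0.568 CPM, with the mutants lower. These levels were not tested.

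Shares of cells were compared as well. Among inhibitory neurons thinned to 2000 UMIs, *Lhx6* was in 0.847% and 1.05% of control cells (replicates 1 and 2) and in 1.08% and 1.09% of mutant cells. *Nkx2-1* was in 0.539% and 0% of control cells and 1.26% and 0.730% of mutant cells. *Npy* was in 2.16% and 1.40% of control cells and in 0.994% and 0.365% of mutant cells, and *Sst* in 0.924% and 1.40% against 0.723% and 0.365%. For these 4 genes the genotypes did not overlap, with the 2 transcription factors higher and the 2 peptides lower in the mutants, and the two-sided exact permutation p was 0.333, the smallest that 2 libraries against 2 allow. Of 11543 genes with a UMI in at least 20 thinned inhibitory neurons, 9.18% had both mutant libraries higher and 7.39% had both lower. These shares rest on 28 cells or fewer per library and on 1 random draw of the UMIs of each cell. A separate draw to 2000 UMIs gave the thinned shares of classes and clusters above. In it *Lhx6* was in 1.21% of all inhibitory neurons, more than in any library here. It also found *Nkx2-1* in control replicate 2, in 0.581% of the 172 cells of the inhibitory cluster led by *Prokr2*. Each of the 4 separations was lost under some setting. For *Lhx6* the genotypes overlapped without thinning (1.93% and 1.75% against 2.44% and 1.46%), with cells thinned to 4000 UMIs and with the 5% mitochondrial limit, and at resolution 2 the mutants were the lower ones. Without thinning *Nkx2-1* remained higher and both peptides lower, as for 13.5% and 4.15% of 14136 genes with a UMI in at least 20 cells. For *Sst* the genotypes overlapped at 4000 UMIs (1.08% and 0.429% against 0.543% and 0%) and with the 5% limit. They overlapped for *Nkx2-1* with the 5% limit (0.174% and 0% against 0.100% and 0.472%). For *Npy* they did so at resolution 2 (2.09% and 1.06% against 1.26% and 0.749%). With the 5% limit, 44 of the 53 cells left with *Lhx6* were no longer inhibitory neurons. Of the 106 cells left of their sub-cluster, 100 were unnamed, so the 5% shares cover a different set of cells. The 4000 UMI setting left out shallower cells, 283 and 52 in the controls and 186 and 53 in the mutants. For *Sox6* (14.8% and 5.26% against 12.5% and 2.19%) and *Satb1* (15.6% and 9.47% against 13.7% and 12.04%) the genotypes overlapped, with exact p of 0.667 and 1.

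In the other 12 classes tested, the members were measurable in 36 further comparisons and none passed. In each class 0% of genes passed the adjusted threshold (7876 to 14956 genes tested over all 13 classes), while 6 to 69 genes per class had an unadjusted p under 0.05 and DESeq2 called 1 gene, no member, in pericytes. Over all 42 comparisons of a member, the smallest unadjusted p was 0.255. The log2 difference was 0.21 ± 0.27 for *Satb1* in excitatory neurons and -0.20 ± 0.30 for *Npy* in ependymal cells. For *Sox6* in OPCs it was 0.03 ± 0.92, with a within-replicate value of 0.05 in replicate 1 and -0.05 in replicate 2. In OPCs, both mutant libraries were above both controls for *Nkx2-1* and *Satb1* (98.3 and 90.7 CPM in the controls, 104 and 121 in the mutants), as for 6.89% of genes, and below for *Npy* (6.05 and 4.59 CPM in the controls, 4.14 and 3.17 in the mutants), as for 6.29% of genes. Both mutant libraries were also higher for *Satb1* in excitatory neurons (as for 7.52% of genes) and microglia (9.28%), and for *Npy* in pri-OPCs (8.15%). The test of these classes had no term for the replicate either. With the replicate block in edgeR, 266 genes in microglia to 648 in neural progenitor cells had an unadjusted p under 0.05. The genes that passed with it are counted below, and no member was among them.

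Wider lists of MGE genes showed no call in inhibitory neurons. The sub-cluster with most *Lhx6* made up 134 of these 2964 cells (4.52%). Sums over the class thus describe mostly other inhibitory neurons and do not measure MGE interneurons alone. Of 21 transcription factors of MGE patterning and interneurons, 16 were tested in inhibitory neurons and 0 rose or fell, with a median log2 difference of 0.03 (all genes tested, -0.02). The most abundant were *Zeb2* (932 ± 71.3 CPM), *Dlx1* (614 ± 161) and *Sp9* (474 ± 40.4), which act in the specification and migration of GABAergic neurons generally. All 7 genes of interneuron migration were tested and 0 passed, with a median of -0.30. The most abundant were *Erbb4*, the receptor of neuregulins, *Robo1*, the receptor of Slit proteins, and *Epha4*, an ephrin receptor. *Erbb4* showed the contrast of the replicates, at 4246 and 244 CPM in the controls and 3977 and 192 CPM in the mutants. Of 14 maturation markers, 10 were tested and 0 passed, with a median of -0.52. Among these, *Nxph1* (248 ± 151 CPM), the potassium channel gene *Kcnc1* (99.8 ± 17.7) and *Reln* (61.0 ± 87.8), which encodes reelin, were highest. *Reln* ranged from 30.04 and 192 CPM in the controls to 15.97 and 6.22 CPM in the mutants, a log2 difference of -3.22 ± 1.07 with an adjusted p of 0.99996.

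Markers of the neighbouring eminences were measured in the same neurons and showed no call. Of the 7 markers of the lateral eminence and of olfactory-type neuroblasts, 6 were tested and 0 passed (median log2 difference 0.07), and *Meis2* (2986 ± 589 CPM), *Pbx3* (702 ± 316) and *Tshz1* (423 ± 98.2) were highest. Of 12 genes of striatal projection neurons, 10 were tested and 0 passed (median -0.19), with *Bcl11b* (263 ± 53.7 CPM), *Foxp2* (233 ± 118) and *Foxp1* (227 ± 73.7) highest. Of the 8 CGE genes 7 were tested and 0 passed (median -0.30), and *Adarb2* (1152 ± 939 CPM), *Calb2* (146 ± 114) and *Prox1* (60.6 ± 7.95) led them.

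Receptors of the 2 peptides were mostly found in other cells, and the classes given here were chosen after their values were seen. The somatostatin receptor gene *Sstr2* stood at 85.4 and 81.6 CPM in control and 89.0 and 120 CPM in mutant excitatory neurons, and at 59.4 to 111 CPM in their precursors, for which it was a naming marker, against 5.58 ± 3.26 CPM in inhibitory neurons. *Sstr1* was highest in OPCs (26.3 ± 12.5 CPM) and pri-OPCs (25.1 ± 13.3). The neuropeptide Y receptor gene *Npy1r* stood at 92.1 ± 33.6 CPM in fibroblasts and 50.5 ± 5.01 CPM in pericytes, the mural cells of small vessels, and *Npy2r* at 15.6 ± 6.82 CPM in ependymal cells, the class with the highest *Npy* level. In inhibitory neurons *Sstr2* and *Npy1r* were the 2 of 9 receptor genes that were tested, and neither passed. Over all 13 classes the 7 lists gave 0 calls in 523 tests of a list gene. With the replicate block, 6 of the 523 passed by edgeR, none of them in inhibitory neurons. In excitatory neurons *Nxph1* was higher in the mutants (log2 difference 1.35 ± 0.30, SE) and *Reln* (-2.10 ± 0.44), *Adarb2* (-1.39 ± 0.29) and *Cck* (-2.39 ± 0.29), which encodes the peptide cholecystokinin, were lower. *Erbb4* was higher in excitatory precursors (2.03 ± 0.34) and *Nxph1* in microglia (1.77 ± 0.39).

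Genes with the most similar distribution were named from the correlation of log2(CPM + 1) over the 31 clusters, among 17468 genes with at least 100 UMIs. The clusters share libraries and depth, so the coefficients are descriptions. For *Nkx2-1* the nearest gene was its neighbour *Sfta3-ps* (r = 0.86), followed by *4933432K03Rik* (0.77) and *Lgr5* (0.71). For *Sox6* it was *Gm45025* (0.90), the antisense gene within its own span, and then *Maml2* (0.85) and *Gfra1* (0.84). *Lhx6* was most like *Gm28892* (0.86), *Gm13619* (0.83), *A830031A19Rik* (0.82), *Gm45321* (0.82) and *Gm2516* (0.82), and the last 3 were also the 3 nearest to *Sst* (0.80, 0.80 and 0.80). *Satb1* was most like *Srpk2* (0.91), *Iglon5* (0.91) and *Rimklb* (0.89), and *Npy* like *Reln* (0.76), *Ankrd55* (0.71) and *2700033N17Rik* (0.68).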

How the data were processed

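Droplet-based 3′ single-cell RNA libraries (10x Genomics) were made from sorted tdTomato-positive cells of 2 control and 2 mutant pools. The authors deposited a matrix of whole-number UMI counts per gene and barcode for each library, not normalized. The submitters' processing notes name Cell Ranger 3.0, the file headers name 7.0.0 for replicate 1 and 5.0.1 for replicate 2, and whether intronic reads and strand were used in counting is not given in the sources used here. Groups came from the genotype labels. The members and gene lists were chosen with earlier results of these data known.

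A barcode was kept as a cell if it had between 2000 and 40000 UMIs, no fewer than 1000 genes, and a mitochondrial share of 10% or less. They were clustered with scanpy 1.11.5 (2000 variable genes without the 6 members, 30 principal components, 15 neighbours, resolution 1) and named from markers of which at least 3 were detected in 10% of the cells. The rule for naming sub-clusters of inhibitory neurons (a score of at least 1, and 0.5 above the next) was set after the cells had been examined. No sub-cluster took the name of MGE interneurons, so a share of such cells is not given. Scrublet marked 2.50% and 0.471% of control cells and 2.60% and 0.0914% of mutant cells, and these cells were kept. It marked under 0.5% in replicate 2, where it may have failed to find doublets.

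Counts were summed per library and class (at least 20 cells in every library) and entered the quasi-likelihood test of edgeR 4.0.16 (R 4.3.3), with TMM scaling, filterByExpr and Benjamini-Hochberg adjustment over all genes of a class (threshold 0.05). CPM are counts per 1000000 UMIs. Shares of cells with a UMI were taken after thinning every cell to 2000 UMIs and compared by a two-sided exact permutation test over the 6 assignments of the libraries, and their intervals are exact 95% binomial (Clopper-Pearson) ones. The scripts were tested on simulated data. Alternatives were no scaling, DESeq2 1.42.0, other filters on low counts, a replicate block, a mitochondrial limit of 5%, resolution 2, removal of cells marked by Scrublet, other thinning and leaving out each library. The named genes were the members, the 3 most abundant genes of each list in inhibitory neurons, any list gene that passed, and the genes nearest to each member in pattern. Gene models were GENCODE vM21 (99.6% of 32285 gene IDs matched), and promoters were from RefSeq.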

Additional observations from a re-analysis of the deposited data

How the results depend on the processing

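No member passed the adjusted threshold in inhibitory neurons under any of 14 settings, or in the other classes under any of 13. Fitted changes of single members were less stable, and 28 alternative values changed direction while 206 did not. Without the 1 inhibitory neuron with the most *Sst* and *Npy* UMIs, the log2 change became -2.71 for *Sst* and -2.05 for *Npy*. That alternative was chosen after seeing the data and removed a cell from 1 mutant library only. With a mitochondrial limit of 5% the change became -2.45 for *Sst*. Under that limit 44 of the 53 cells left with *Lhx6* were no longer inhibitory neurons. The change of *Sox6* in oligodendrocytes was -0.0200 with no scaling and -0.00717 without cells marked by Scrublet. The difference in the share of inhibitory neurons with *Lhx6* was -0.293 percentage points with cells thinned to 4000 UMIs and -0.518 at resolution 2, and that of *Satb1* was -0.272 with the 5% limit. The cause was not tested. Leaving out 1 library at a time gave 0 calls among the members throughout. In inhibitory neurons the log2 change then ranged from -2.03 to 0.13 for *Lhx6*, from -2.68 to 1.52 for *Sox6*, from -0.0347 to 0.57 for *Satb1*, from -3.45 to 2.75 for *Sst* and from -3.12 to 2.64 for *Npy*. It ranged from -1.25 to 0.72 for *Nkx2-1* and from -0.44 to 0.0724 for *Npy* in ependymal cells, from -1.61 to 1.34 for *Npy* in astrocytes, from -1.26 to 1.23 for *Sox6* in OPCs and from -1.21 to 1.17 for *Sox6* in oligodendrocytes. The difference in share ranged from -7.84 to 2.44 percentage points for *Sox6* and from -2.75 to 3.41 for *Satb1*. No setting gave a share of MGE interneuron-like cells.

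The labels number the replicates but do not say that a number pairs libraries, and there are only 2 pairs. Deviations of same-numbered libraries from their genotype means correlated at 0.609 to 0.894 in the 13 classes. With the replicate block, 0 members were called, the lowest adjusted p of a member was 0.0971 (*Sox6* in microglia, log2 change 1.58), and the change of *Npy* in astrocytes became -0.0328 and that of *Sox6* in oligodendrocytes -0.00614. In inhibitory neurons the blocked changes were 1.86 for *Sst*, 1.14 for *Npy*, 0.97 for *Nkx2-1*, 0.18 for *Satb1*, -0.24 for *Lhx6* and -0.50 for *Sox6*. Over all genes, the block called 0 in inhibitory neurons, astrocyte progenitors and pericytes, and 1 in OPCs, 2 in neural progenitor cells, 3 in IN progenitors, 7 in excitatory precursors, 8 in pri-OPCs, 18 in ependymal cells, 23 each in microglia and oligodendrocytes, 28 in excitatory neurons and 29 in astrocytes, against 0 without it. With no filter on low counts, 8 genes were called in IN progenitors, 5 in excitatory precursors, 19 in microglia, 8 in oligodendrocytes and 21 in pericytes, against 0 with it, and none was a member. Of the genes of the 7 lists, 6 of 523 tests passed with the block (named in the report), and *Adarb2* in pericytes passed without the filter (log2 change 3.69, 1 of 897 tests). The other alternatives called none.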

Other observations

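The 4 inhibitory neurons richest in *Sst* and *Npy* also had UMIs of *Nos1*, which encodes neuronal nitric oxide synthase, and of *Chodl*, which encodes chondrolectin. Both mark a small population of cortical interneurons with long-range axons, and both were singled out after their values were seen. The cell of mutant replicate 1 had 85 *Nos1* and 22 *Chodl* UMIs, and the 3 cells of control replicate 1 had 36 and 1, 9 and 3, and 4 and 1. In the sub-cluster that held most *Lhx6*, *Lhx8*, a paralogue of *Lhx6* that acts in cholinergic neurons of the ventral telencephalon and was likewise chosen after its values were seen, was in 9 of 48 cells with *Lhx6* and in 1 of 86 without. After thinning, its intervals overlapped (8.33%, 2.32% to 19.98%, against 1.16%, 0.0294% to 6.31%).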
